A study of Mus musculus with 41 samples.

Results

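The genes described here repair broken DNA: the end-joining machinery that rejoins 2 DNA ends directly, and the genes that sense breaks, signal them or repair DNA by other routes. A list of 41 gene symbols was drawn up for these functions, and for each gene the probe set whose mean log2(signal + 32) over all arrays was highest was used. Of the 41 genes, 38 had a probe set that the annotation table assigns to a single gene; Dclre1c, Trp53 and Xrcc2 were not analysed here. All 38 genes reached their array's median signal on at least 5 arrays, which was the filter that left 11947 of 18193 genes for testing. The 38 genes fall into 8 of end joining, 8 of break sensing and signalling, 3 of the replication checkpoint, 9 of homologous recombination, 5 of the Fanconi anaemia pathway and 5 of single-strand break, base and mismatch repair.

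The study profiled sorted B cell precursors of C57BL/6 mice that were wild type for Pax5, with no treatment, on 41 Affymetrix arrays with 1 RNA sample each. The populations were common lymphoid progenitors (CLP, n = 7) and the Hardy fractions A (n = 7), B (n = 7), C (n = 5), D (n = 5), E (n = 5) and F (n = 5). In the usual scheme, fractions A, B and C run from the earliest committed cells through pro-B cells to early pre-B cells, fraction D holds small pre-B cells, E immature B cells and F mature B cells. The age of the mice, the tissue and the sorting gates are not given in the sources used here, nor whether the samples of a population came from separate animals, so p-values here reflect sample-to-sample spread that could be technical.

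Developing B cells cut their own DNA. The RAG recombinase breaks the immunoglobulin genes at the heavy chain locus in pro-B cells and at the light chain loci in small pre-B cells. Those breaks are rejoined by non-homologous end joining: the Ku proteins Xrcc5 (Ku80) and Xrcc6 (Ku70) hold the ends, the kinase Prkdc (DNA-PKcs) is recruited by Ku, the polymerases Poll and Polm fill gaps, and Lig4 seals the ends with its partners Xrcc4 and Nhej1. Homologous recombination copies the missing information from the sister chromatid, which exists only after the DNA has been replicated, and it is therefore tied to dividing cells. Both routes are signalled by Atm and by the Mre11a, Rad50 and Nbn complex, and the adaptor Trp53bp1 steers breaks towards end joining.

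The markers of the sorted cells were checked before the repair genes. Level here means the mean log2(signal + 32) of a list. The 5 B lineage genes stood between 7.27 and 10.87 on the fraction A arrays, against 11.72 to 12.42 in CLP and 12.42 to 12.98 in fraction B, so the CLP arrays already carried B lineage transcripts. The 8 natural killer cell genes stood between 11.19 and 12.36 in fraction A and between 7.51 and 8.02 in CLP, so fraction A carried the markers of another cell type and few of its own. The 5 plasmacytoid dendritic cell genes were also high in fraction A, between 9.43 and 11.46, against 8.34 to 9.54 in CLP and 6.26 to 7.16 in fraction B. The 7 myeloid genes stood between 10.13 and 11.79 in CLP, between 11.25 and 12.16 in fraction C, between 7.64 and 9.71 in fraction B and between 9.03 and 9.71 in fraction D, and array 2 of fraction E stood at 12.17 with the other E arrays lower. The arrays of fraction A correlated with the mean of the other arrays of their population at 0.829 to 0.957; fraction B gave 0.927 to 0.978 and fraction D gave 0.978 to 0.982. The ratio of the 3′ to the 5′ Gapdh control signal was 12.7 ± 9.92 (SD, n = 7) in fraction A, 7.52 ± 2.33 (SD, n = 7) in fraction B and 4.17 ± 0.519 (SD, n = 7) in CLP. In sorted bulk samples, fewer cells of a type and less RNA per cell cannot be told apart.

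Among the 38 genes, 31 differed somewhere among the 7 populations in limma's moderated F-test with Benjamini-Hochberg adjustment over the 11947 genes, against 73.3% of all genes tested. By function, the F-test called 6 of 8 end-joining genes, 6 of 8 genes of break sensing, 2 of 3 checkpoint genes, 9 of 9 genes of homologous recombination, 4 of 5 Fanconi genes and 4 of 5 genes of single-strand, base and mismatch repair. The 7 genes that were not called were Prkdc, Nhej1, Mdc1, Rnf8, Atr, Fancl and Lig3. The populations with the highest mean log2(signal + 32) were CLP for 13 genes, fraction B for 9 and fraction D for 9; of all genes tested, 20.1% were highest in CLP, 12.5% in B and 12.7% in D. Fraction A was the lowest for 17 genes and fraction E for 11. The lowest population was not counted over all genes tested, so whether these 2 counts are particular to repair genes cannot be told. Of the 8 end-joining genes 5 were highest in fraction D, and of the 9 genes of homologous recombination 0 were. Nhej1, among those 5, was not called by the F-test and stood at 8.09 in D and 8.04 in A on that scale.

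**Figure D1:**
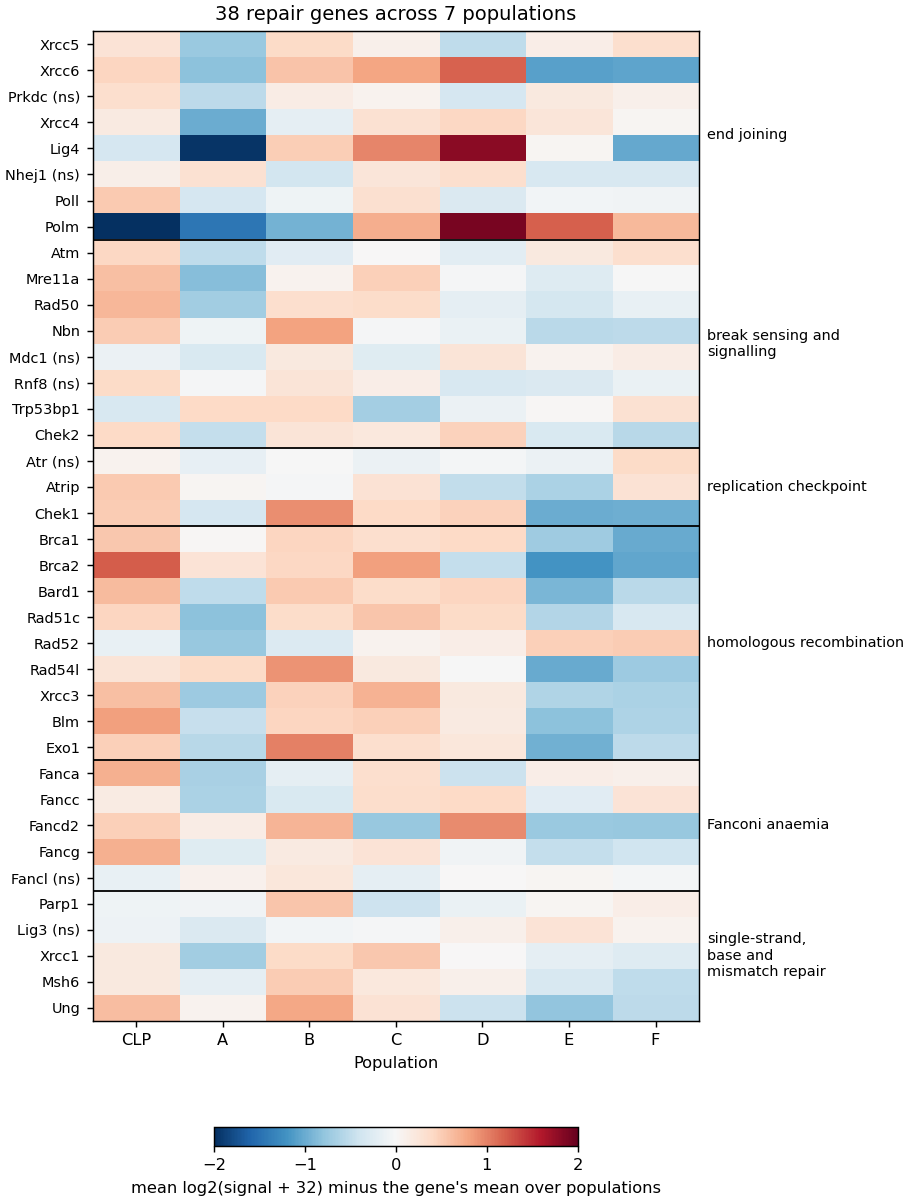
Each row is a repair gene and each column a population. Colour is the population's mean log2(signal + 32) minus the mean of the gene's 7 population means, red above and blue below, with the scale ending at 2 and -2; "ns" marks the 7 genes not called by the F-test. Lig4 and Polm are darkest red in fraction D, and most rows of homologous recombination are blue in fractions E and F.

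The end-joining genes were led by the ligase Lig4, the Ku gene Xrcc6 and the polymerase Polm, whose changes were the largest of the group. Their promoters are shown because these 3 genes were all highest in fraction D. The promoter of Bard1 is shown for the E2F-type motif described below. Of the homologous recombination genes that fell from D to E and had a promoter entry, Bard1 alone held that motif. The windows of Blm, Brca1 and Rad54l held no E2F-type match. The sequences are the 250 bases before and 50 bases after the start site listed by RefSeq on GRCm38.p6, read 5′ to 3′ on the gene's strand. Capitals mark a match to an E2F-type motif (TTTCCCGC, TTTCGCGC, TTTGCCGC or TTTGGCGC on either strand), the kind bound by factors that act at the start of DNA replication. Lig4 has 2 listed starts, of which 1 is shown.
Lig4, chr8:9977631-9977930, minus strand: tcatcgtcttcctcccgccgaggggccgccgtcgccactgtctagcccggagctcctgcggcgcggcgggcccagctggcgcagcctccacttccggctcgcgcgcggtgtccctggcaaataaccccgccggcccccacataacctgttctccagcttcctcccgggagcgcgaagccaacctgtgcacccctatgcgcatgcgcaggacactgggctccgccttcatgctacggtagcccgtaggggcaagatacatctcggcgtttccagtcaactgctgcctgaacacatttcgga
Polm, chr11:5837967-5838266, minus strand: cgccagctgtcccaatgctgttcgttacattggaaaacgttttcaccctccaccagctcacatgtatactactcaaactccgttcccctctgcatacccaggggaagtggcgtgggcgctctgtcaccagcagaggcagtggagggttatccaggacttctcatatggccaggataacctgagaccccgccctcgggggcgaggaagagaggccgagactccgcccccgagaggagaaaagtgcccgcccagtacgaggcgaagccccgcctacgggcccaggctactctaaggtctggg
Xrcc6, chr15:82016119-82016418, plus strand: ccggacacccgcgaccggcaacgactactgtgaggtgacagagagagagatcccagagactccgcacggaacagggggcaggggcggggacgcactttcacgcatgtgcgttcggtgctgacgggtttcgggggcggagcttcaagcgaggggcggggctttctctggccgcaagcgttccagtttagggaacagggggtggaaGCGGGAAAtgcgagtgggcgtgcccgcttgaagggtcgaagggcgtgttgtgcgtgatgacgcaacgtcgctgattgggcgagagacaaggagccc
Bard1, chr1:71102923-71103222, minus strand: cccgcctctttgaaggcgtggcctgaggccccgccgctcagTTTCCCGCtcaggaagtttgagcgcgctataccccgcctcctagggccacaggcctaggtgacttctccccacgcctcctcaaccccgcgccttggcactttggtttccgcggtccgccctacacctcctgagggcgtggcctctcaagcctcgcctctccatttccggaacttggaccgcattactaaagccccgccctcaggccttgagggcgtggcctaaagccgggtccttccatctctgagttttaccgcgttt
The windows of Lig4 and Polm held no such match, that of Xrcc6 held GCGGGAAA 46 bases before the start and that of Bard1 held TTTCCCGC 209 bases before it. RefSeq promoters were found for 32 of the 38 genes, with 35 start sites; Exo1, Fancd2, Nbn, Poll, Prkdc and Rad50 had no entry. An E2F-type match stood in 9 of the 35 windows (25.7%), against 744 of all 32851 promoters of that length (2.26%). The genes with a match were Fancg, Chek2, Mdc1, Xrcc6, Bard1, Brca2, Rad51c and Msh6. Windows of genes that fell from D to E held a match in 3 of 10 (30%), and those of the other genes in 6 of 25 (24%). Some genes have more than 1 window, and counted by gene these were 3 of 8 and 5 of 24. The E-box CAGGTG, searched on both strands, stood in 7 of 35 windows (20%) and in 20.2% of all promoters. By gene it stood in 6 of 32, because overlapping windows of Rad54l held the same match. A match is a description of the letters in these windows.

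Lig4, the DNA ligase that closes the joint, fell from CLP to fraction A, rose from A to B, had its highest signals in the small pre-B cells of fraction D and fell from D to the immature B cells of fraction E. The linear MAS5 signal of Lig4 (probe set 1439487_at) in CLP had a lowest, median and highest value of 534.3, 856.3 and 1299, and in fraction B of 701.3, 1653 and 2398. In fraction A the lowest, median and highest Lig4 signals were 120.0, 170.1 and 836.2, and 1 of the 7 arrays held that highest value. In fraction C the 5 Lig4 signals were 1705, 1544, 2471, 2950 and 2126, and in fraction D they were 3570, 3912, 3597, 3784 and 3741. Every D array stood above every C array and every E array. The Lig4 signals were 908.3, 1154, 1523, 772.5 and 1135 in fraction E and 638.2, 431.5, 493.3, 432.9 and 523.7 in fraction F, so all E arrays stood above all F arrays.

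In limma's fit of all 41 arrays, Lig4 was 2.45 ± 0.27 (log2 difference ± SE) higher in B than in A, with an adjusted p of 8.55e-10, and was -1.63 ± 0.27 in A against CLP, with an adjusted p of 7.71e-06. In B against CLP the difference of Lig4 was 0.82 ± 0.27 (adjusted p = 0.0195), and without array 4 of fraction B (0.71, adjusted p = 0.0553) or array 2 of CLP (0.72, adjusted p = 0.0528) it did not pass. The step from C to D was 0.81 ± 0.32 (adjusted p = 0.0646) and did not pass. In the fit of the C and D arrays alone, which does not share the wide spread of fractions A and B, the adjusted p of Lig4 was 4.31e-04, and without the fraction A arrays it was 0.00594. From D to E Lig4 fell by 1.77 ± 0.32 on the log2 scale (adjusted p = 1.05e-04), a 3.4-fold difference. The further step from E to F was -1.05 ± 0.32 (adjusted p = 0.203; 0.00142 in the fit of E and F alone).

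Xrcc6, the smaller Ku subunit, fell more from D to E than any other of the 38 genes. Its signals (probe set 1417437_at) were 7677, 7893, 7094, 7464 and 8724 in fraction D and 1748, 2080, 1547, 1254 and 1402 in fraction E. The F arrays, at 1357, 1697, 1872, 1583 and 1634, lay within the range of the E arrays. The signal was 4621 ± 346 (SD, n = 7) in CLP, 5120 ± 958 (SD, n = 7) in fraction B and 6029 ± 1394 (SD, n = 5) in fraction C. The 7 arrays of fraction A ran from 1143 through a median of 1779 to 6166. Xrcc6 fell by 2.27 ± 0.25 on the log2 scale from D to E (adjusted p = 6.61e-09, 4.82-fold), with no overlap between the arrays. It was -1.49 ± 0.23 in F against CLP (adjusted p = 1.29e-06). The rise from C to D, 0.39 on the log2 scale, did not pass, and the C and D arrays overlapped. A second probe set of Xrcc6, 1428504_at, was also lower in E than in D (-1.47) and in F than in CLP (-0.87).

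Polm, a template-flexible polymerase related to the terminal transferase Dntt, was low in the early populations. Its signals (probe set 1417249_at) in CLP had a lowest, median and highest of 9.9, 16.2 and 46.0, and all 7 were below the median signal of their array. In fraction B the arrays of Polm split, with 537.1, 453.3 and 120.1 on arrays 1, 4 and 5 and 12.1 to 19.3 on the others. Those 3 arrays were also the B arrays with the lowest correlation with their own population. From C on the arrays were close together, at 324.5, 203.5, 424.1, 297.2 and 434.5 in C and 740.7, 873.1, 615.1, 808.9 and 864.2 in D. All D arrays of Polm stood above all C arrays. The signals were 622.1, 470.4, 499.0, 365.6 and 399.4 in E, of which 1 lay within the range of D, and 309 ± 63.1 (SD, n = 5) in fraction F.

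From CLP to F Polm rose by 2.72 ± 0.44 on the log2(signal + 32) scale (adjusted p = 2.63e-06). The size of that difference depends on the added 32, because the CLP signals are dim, so no fold is given. The step from B to C was 1.68 ± 0.44 (adjusted p = 0.004; 0.0514 in the fit of B and C alone). The step from CLP to B was 1.13 ± 0.40 (adjusted p = 0.0308); without B arrays 1, 4 and 5 it was -0.10 (adjusted p = 0.839), and leaving out array 1, 4 or 5 of B or array 4, 5 or 7 of CLP gave values from 0.74 to 1.10 that did not pass. From C to D the difference of Polm was 1.17 ± 0.47 (adjusted p = 0.0726; 1.59e-04 in the fit of C and D alone). From D to E it was -0.70 (adjusted p = 0.542; 0.00244 in the fit of D and E alone).

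The other end-joining genes changed less, and in the fit of all arrays their calls lay in the comparisons with fraction A. Other fits also called Poll, Xrcc5, Prkdc and Nhej1 elsewhere. Xrcc4, the scaffold that stabilises Lig4, had a signal of 163 ± 109 (SD, n = 7) in fraction A, against 352 ± 74.7 (SD, n = 7) in CLP and 276 ± 86.2 (SD, n = 7) in fraction B. It was -1.18 ± 0.27 in A against CLP (adjusted p = 7.29e-04) and 0.82 ± 0.27 in B against A (adjusted p = 0.0192; 0.52 and 0.0805 without array 7 of A). From C on Xrcc4 stayed between 325 ± 125 (SD, n = 5) in fraction F and 415 ± 81.8 (SD, n = 5) in fraction D, with no step that passed.
Xrcc5, the larger Ku subunit, did not follow Xrcc6. Its signals were 314.7, 187.3, 255.8, 139.5 and 223.9 in D and 409.8, 297.4, 375.8, 284.4 and 456.3 in E, so D and E overlapped and the difference of 0.65 did not pass in the fit of all arrays, but it passed in the fit of D and E alone (adjusted p = 0.0255). Xrcc5 was called in A against CLP (-1.02 ± 0.37, adjusted p = 0.0264) and in B against A (1.13 ± 0.37, adjusted p = 0.0168). Its lowest A signal was 6.4, and without that array, number 4, the values were -0.61 (adjusted p = 0.121) and 0.72 (adjusted p = 0.0709). The first call was also lost without array 3 of CLP (-0.96, adjusted p = 0.0502) and the second without array 5 of B (0.91, adjusted p = 0.0563).
Prkdc, the kinase of the complex, was called in the fit of all arrays in A against CLP alone (-0.86 ± 0.30, adjusted p = 0.0237); without A array 6 the value was -0.47 (adjusted p = 0.11) and without A array 7 it was -0.68 (adjusted p = 0.0739). Its signal was 493 ± 44.5 (SD, n = 5) in fraction D and 740 ± 180 (SD, n = 5) in fraction E; the fits of the compared populations alone called it higher in E than in D (0.53, adjusted p = 0.0208) and lower in D than in C (-0.41, adjusted p = 0.0392). Poll was called in the fit of all arrays in A against CLP alone (-0.85 ± 0.24, adjusted p = 0.00532), from signals of 159 ± 46.9 (SD, n = 7) in CLP and 78.5 ± 35.8 (SD, n = 7) in fraction A. That call was lost in 5 settings, with adjusted p from 0.052 to 0.0792. They were the fit of CLP and A alone, array weights, median centring, quantile normalization and leaving out A arrays 4, 6 and 7. Poll was dim, and 0 of its D, E and F signals reached the median of their array. Without the fraction A arrays Poll was also called lower than CLP in B (-0.62, adjusted p = 0.0182) and in F (-0.60, adjusted p = 0.0282). Nhej1, the factor that stimulates Lig4, was called in no comparison in the fit of all arrays. Its signal ranged from 142 ± 34.1 (SD, n = 5) in fraction F to 352 ± 437 (SD, n = 7) in fraction A. A fit that weighted the arrays called Nhej1 lower in B than in CLP (-0.55, adjusted p = 0.0449). That fit also called it lower in E than in D (-0.63, adjusted p = 0.0286). Without array 1 of A, Nhej1 was lower in B than in A (-0.86, adjusted p = 0.043).

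**Figure D2:**
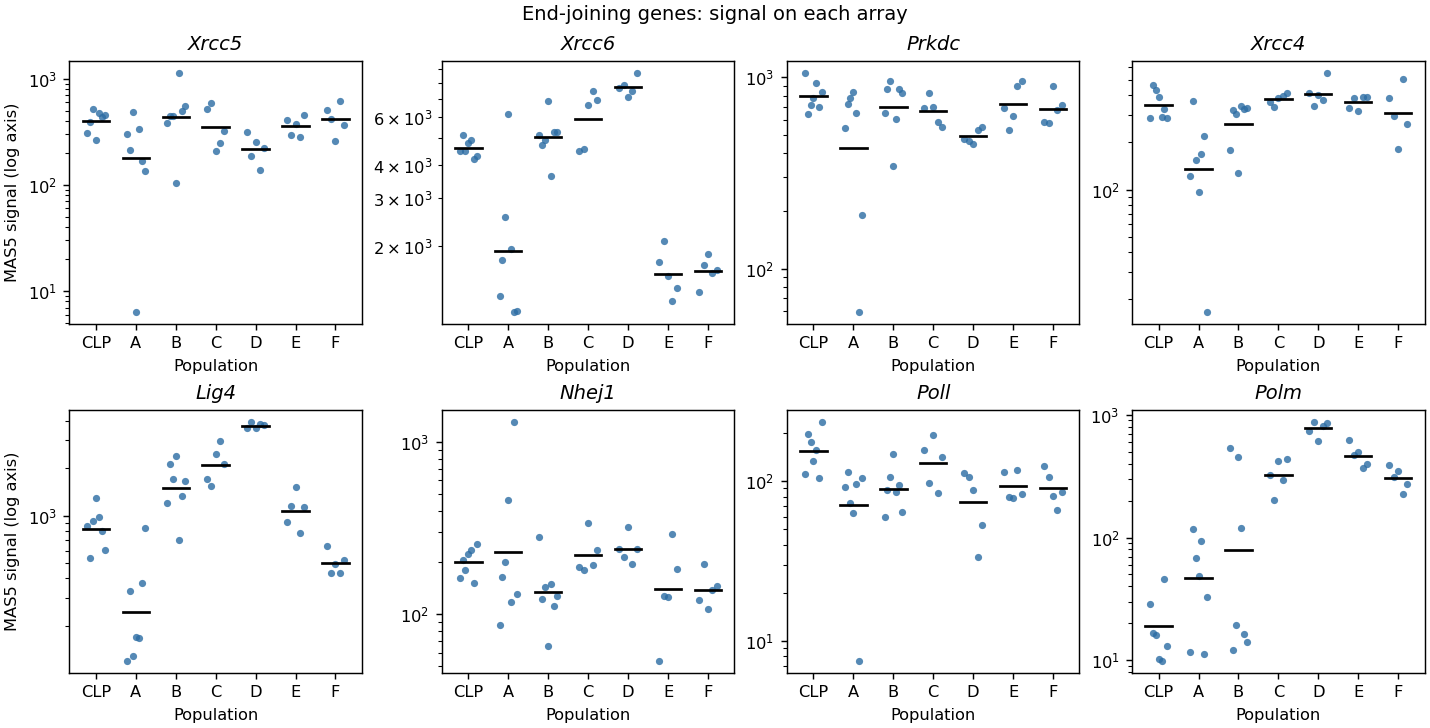
Each panel is an end-joining gene, with the populations along the horizontal axis and the MAS5 signal on a log axis. Points are arrays and bars are the mean of log2(signal + 32) turned back into a signal. The 5 fraction D arrays of Lig4 lie between 3570 and 3912, above all other arrays, and Xrcc6 falls from D to E while Xrcc5 does not.

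The recombinase genes that make the breaks showed part of the same course. Rag1 had a signal of 14050 ± 1129 (SD, n = 5) in fraction D and 2585 ± 750 (SD, n = 5) in fraction E, and Rag2 of 2664 ± 84.4 (SD, n = 5) and 293 ± 162 (SD, n = 5). The terminal transferase Dntt, which adds bases at the joint, was instead highest in B and was already -2.26 ± 0.50 in D against C (adjusted p = 9.73e-04).

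Of the 8 break sensing and signalling genes, 0 were called from D to E in limma's fit of all arrays, with 1 at an unadjusted p under 0.05. With 4.21% of all genes tested called lower and 3.89% higher in that step, a count of 0 among 8 is near the background. Atm, the kinase that answers double-strand breaks, had signals of 2572 ± 353 (SD, n = 7) in CLP, 1532 ± 741 (SD, n = 7) in fraction A and 1685 ± 464 (SD, n = 7) in fraction B. It was -0.93 ± 0.23 in A against CLP (adjusted p = 0.00162) and -0.64 ± 0.23 in B against CLP (adjusted p = 0.0345); the latter was lost without array 3 or 4 of B or array 1, 2, 3 or 5 of CLP, with adjusted p from 0.0547 to 0.101. All E arrays of Atm, from 2046 to 2430, stood above all D arrays, from 1282 to 1912, and the difference of 0.41 did not pass (adjusted p = 0.013 in the fit of D and E alone).
All 3 genes of the end-binding complex were called higher in B than in A in the fit of all arrays, and Mre11a and Rad50 lower in A than in CLP. The 3 calls in B against A were lost in the fit of A and B alone (adjusted p = 0.205 for Mre11a, 0.219 for Rad50 and 0.143 for Nbn) and without A arrays 4, 6 and 7. Mre11a was -1.45 ± 0.29 in A against CLP (adjusted p = 1.24e-04) and 0.92 ± 0.29 in B against A (adjusted p = 0.0135). The second Mre11a value was 0.63 (adjusted p = 0.0576) without array 7 of A and -0.051 without arrays 4, 6 and 7. Rad50 was -1.36 ± 0.34 in A against CLP (adjusted p = 0.00175) and 1.03 ± 0.34 in B against A (adjusted p = 0.019). For Rad50 the second value was 0.76 without A array 4 (adjusted p = 0.0686) and 0.57 without A array 6 (adjusted p = 0.0822), and 0.17 without A arrays 4, 6 and 7. The call of Rad50 in A against CLP was lost in the fit of those 2 populations alone (adjusted p = 0.0697). Nbn was 0.90 ± 0.27 in B against A (adjusted p = 0.00865; 0.49 and 0.0588 without A arrays 4, 6 and 7) and -1.04 ± 0.29 in F against CLP (adjusted p = 0.00392). It was also -0.84 ± 0.29 in C against B (adjusted p = 0.0327), a call lost without any 1 of B arrays 2, 5 and 7 or C arrays 3, 4 and 5.

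Trp53bp1 encodes 53BP1, which steers breaks towards end joining, and its probe sets did not give 1 answer. The probe set with the highest mean, 1426956_a_at, was 0.71 ± 0.14 in B against CLP (adjusted p = 1.39e-04), 0.72 ± 0.14 in A against CLP (adjusted p = 8.99e-05) and -1.08 ± 0.15 in C against B (adjusted p = 1.30e-06). It was 0.56 ± 0.17 in D against C (adjusted p = 0.0119; 0.48 and 0.0511 without array 1 of C) and 0.63 ± 0.15 in F against CLP (adjusted p = 9.73e-04). Another probe set, 1426957_at, was called the opposite way in A against CLP (-0.68) and in B against CLP (-0.60). The direction of Trp53bp1 in these comparisons therefore depended on the probe set.
Chek2, a kinase activated by Atm, was -0.87 ± 0.29 in A against CLP (adjusted p = 0.0155) and -0.96 ± 0.32 in F against CLP (adjusted p = 0.0127). The call in A against CLP was lost in 6 settings, with values from -0.87 to -0.36 and adjusted p from 0.0681 to 0.28. Among them were the fit of CLP and A alone, median centring, quantile normalization and leaving out A array 4. The D arrays of Chek2, from 354 to 521, stood above all its E arrays, from 221 to 316, at a difference of -0.76 that did not pass (adjusted p = 0.0289 without the fraction A arrays and 0.00162 in the fit of D and E alone). The adaptor Mdc1 and the ubiquitin ligase Rnf8 were called in no comparison in the fit of all arrays. Without the fraction A arrays Mdc1 was lower in C than in B (-0.45, adjusted p = 0.0184). In that fit it was also higher in D than in C (0.51, adjusted p = 0.0134).

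From fraction D to fraction E, 10 of the 38 genes fell and 0 rose in the fit of all arrays, which is 26.3% of them, while 4.21% of all genes tested were called lower and 3.89% higher. The fit of D and E alone called 18 lower and 5 higher (Atm, Fanca, Prkdc, Rad52 and Xrcc5), against 12.3% and 12.8% of all genes tested. In that fit 8 genes of homologous recombination were lower and 1 higher, and 3 end-joining genes were lower and 2 higher. The median difference of the 38 genes was -0.38, and that of all genes tested was 0.01. The genes that fell were the end-joining genes Xrcc6 and Lig4, the checkpoint kinase Chek1, the Fanconi gene Fancd2, the mismatch repair gene Msh6 and 5 of the 9 genes of homologous recombination. On 14 genes all E arrays stood below all D arrays, and on 1, Atm, above; for all genes tested these shares were 9.15% and 9.35%. Between 7 and 10 of the 38 genes were called when each array of D or E was left out in turn. Brca1, Chek1, Fancd2, Lig4, Rad54l and Xrcc6 were called in each of those fits and in all 14 other settings. Bard1, Blm, Exo1 and Msh6 lost the call without at least 1 array. The 14 settings did not include other probe sets. Of 3 others each, 0 were called for Chek1 and Fancd2 and 1 for Brca1 and Rad54l. The other probe set of Xrcc6 was called.

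Homologous recombination was the function with the most genes lower in E, with a median difference of -1.0 over its 9 genes against -0.41 over the 8 end-joining genes. Brca1, which with Bard1 starts the route, had signals of 2551, 2550, 2602, 2144 and 2156 in D and 1164, 1249, 948.7, 981.5 and 1126 in E. The D and E arrays of Brca1 did not overlap, and the difference was -1.11 ± 0.24 (adjusted p = 8.71e-04). Bard1, the partner of Brca1, had signals of 895.9, 567.9, 517.4, 455.2 and 449.5 in D and 253.6, 265.2, 143.9, 224.2 and 148.6 in E. Its difference was -1.34 ± 0.39 (adjusted p = 0.0192), with no overlap, and it did not pass without array 1 of D (-1.18, adjusted p = 0.0806) or array 3 (-1.24, adjusted p = 0.0628) or 5 (-1.25, adjusted p = 0.06) of E.
Exo1, a nuclease that cuts back the ends, was -1.20 ± 0.38 (adjusted p = 0.0403), and leaving out any array but D array 5 or E array 2 raised its adjusted p to between 0.0599 and 0.107. The helicase Blm, which dissolves recombination intermediates, was -1.0 ± 0.27 (adjusted p = 0.0114; -0.86 and 0.0623 without array 1 of E). Rad54l, which helps the recombinase invade the sister strand, was -1.0 ± 0.27 (adjusted p = 0.0105). Rad51c and Xrcc3, helpers in loading that recombinase, were -0.96 and -0.80, did not pass, and had D and E arrays that did not overlap. Rad52 was the exception in direction: it was 0.34 in E against D, did not pass in the fit of all arrays (adjusted p = 0.0446 in that of D and E alone), and had its highest mean of 1408 ± 197 (SD, n = 5) in fraction F.

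Brca2, which loads the recombinase on DNA, was the 1 gene of homologous recombination called from C to D in the fit of all arrays. Its signals were 1013, 1654, 1183, 724.6 and 683.9 in C and 555.3, 500.6, 385.4, 352.9 and 232.1 in D. All D arrays of Brca2 stood below all C arrays, at -1.29 ± 0.34 (adjusted p = 0.00528), and the step to E was -0.73 and did not pass. In B against CLP Brca2 was -0.79 ± 0.29 (adjusted p = 0.0376), a call lost without array 5 of B (-0.45, adjusted p = 0.165), without B array 1 or 7 or without any 1 of CLP arrays 2 to 6. Brca2 had the largest fall of the 38 genes from CLP to F, -2.24 ± 0.32 (adjusted p = 2.27e-07), from 1330 ± 187 (SD, n = 7) to 258 ± 63.5 (SD, n = 5). In C against B, D against C and E against D the shared population enters both comparisons, so their differences are not independent of each other.
In F against CLP, 7 of the 9 genes of homologous recombination were lower and 0 were higher, with a median of -1.18. For end joining the counts were 1 lower, Xrcc6, and 1 higher, Polm, with a median of -0.33. In the fit of CLP and F alone they were 3 lower (Lig4, Poll and Xrcc6) and 1 higher for end joining, and 8 lower and 1 higher (Rad52) for homologous recombination, against 36.4% lower and 22.7% higher of all genes tested. Over all 38 genes 15 were lower (39.5%) and 2 higher (5.26%), against 26.6% lower and 15.2% higher of all genes tested, and the 2 that rose were Polm and Trp53bp1. Markers of other cells were also lower in F than in CLP, with 4 of 7 myeloid, 3 of 3 T cell, 4 of 5 plasmacytoid dendritic and 5 of 8 natural killer genes called, and their part was not tested. Brca1 was -1.53 ± 0.22 (adjusted p = 2.67e-07), from 2678 ± 513 (SD, n = 7) to 908 ± 230 (SD, n = 5). The call of Xrcc3 (-1.23 ± 0.50, adjusted p = 0.0424) was lost on leaving out any 1 of 9 of the 12 arrays.

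**Figure D3:**
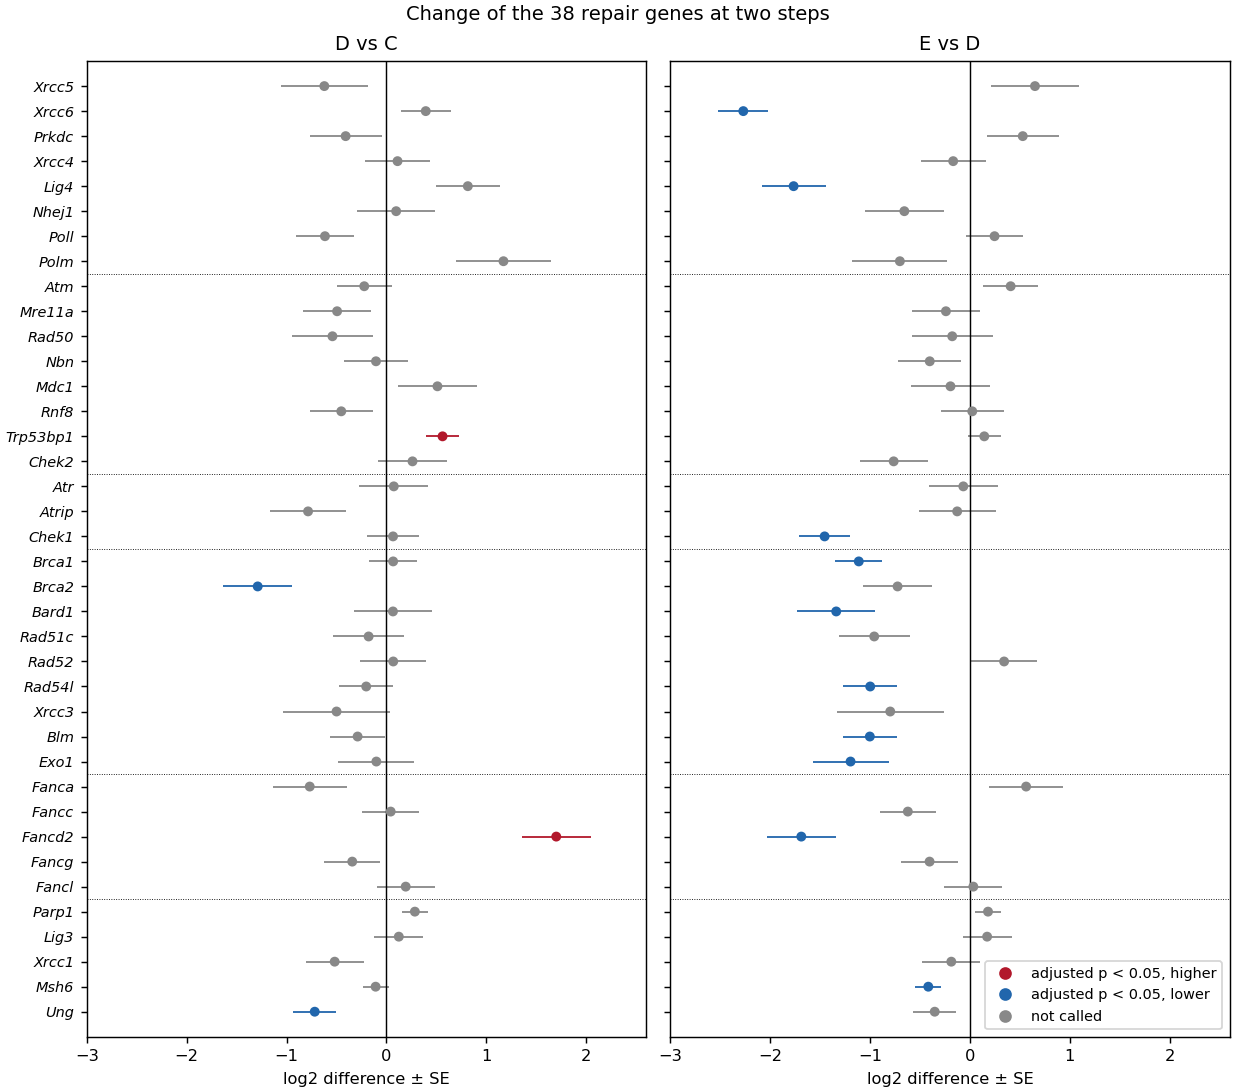
Each row is a repair gene, ordered by function with dotted lines between functions. Points are log2 differences and bars their standard errors from limma's fit of all arrays, for D against C on the left and E against D on the right; coloured points passed an adjusted p of 0.05. The right panel has 10 genes called lower and 0 higher, and the left has 2 each way.

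Chek1, the kinase that halts the cycle when replication is disturbed, had signals of 2315, 1497, 1796, 1465 and 1055 in D and 463.7, 681.6, 605.8, 472.5 and 571.4 in E. The populations did not overlap, and the difference was -1.46 ± 0.26 (adjusted p = 6.95e-05). The 3 other probe sets of Chek1 that passed the filter were also lower in E than in D, and 0 of them were called. Chek1 was also 1.27 ± 0.22 in B against A (adjusted p = 1.27e-05) and -1.47 ± 0.24 in F against CLP (adjusted p = 2.78e-06). Atr, the kinase above Chek1, and its partner Atrip were called in no pairwise comparison in the fit of all arrays. Atrip had means of at most 108 ± 34.2 (SD, n = 7).
Fancd2, the Fanconi protein that is ubiquitylated at stalled forks, went down, up and down again from B to E. Its signals were 455.2, 655.3, 407.9, 131.3 and 234.3 in C, 1543, 1606, 937.2, 1086 and 799.0 in D and 310.7, 534.5, 285.0, 272.7 and 322.8 in E. The differences were -1.44 ± 0.32 in C against B (adjusted p = 8.57e-04), 1.70 ± 0.35 in D against C (adjusted p = 3.65e-04) and -1.69 ± 0.35 in E against D (adjusted p = 5.66e-04). The other probe sets of Fancd2 did not share the course: in D against C they gave -0.34, -0.14 and 0.85, and none of them was called, while in E against D all 3 were lower and none was called.
Of the other Fanconi genes, Fanca was -0.89 ± 0.31 in B against CLP (adjusted p = 0.0286; not passed without array 7 of B, -0.79, or array 7 of CLP, -0.83). Fanca was -1.35 ± 0.31 in A against CLP (adjusted p = 6.82e-04). Fancg was lower in A (-0.96 ± 0.24) and in F (-1.12 ± 0.26) than in CLP, and Fancc was lower in A than in CLP (-0.80 ± 0.24). Fancl was called in no comparison in the fit of all arrays. Without the fraction A arrays Fancl was called in B against CLP (0.37, adjusted p = 0.0446) and in C against B (-0.41, adjusted p = 0.0471).

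Among the genes of single-strand, base and mismatch repair, the glycosylase Ung, which removes uracil from DNA, fell with Brca2 from C to D. Its mean signal went from 4971 ± 462 (SD, n = 5) in fraction C to 3038 ± 560 (SD, n = 5) in fraction D, a difference of -0.72 ± 0.22 (adjusted p = 0.0142) without overlap. Msh6, a mismatch sensor, was 0.68 ± 0.11 in B against A (adjusted p = 3.92e-06) and -0.42 ± 0.13 in E against D (adjusted p = 0.0347). That last difference lost the call on leaving out 7 of the 10 arrays in turn. Xrcc1, a scaffold for single-strand break repair, was -0.88 ± 0.25 in A against CLP (adjusted p = 0.00411) and 1.08 ± 0.25 in B against A (adjusted p = 6.92e-04). Parp1, the sensor of nicked DNA, was 0.64 ± 0.11 in B against CLP (adjusted p = 2.25e-05) and -0.97 ± 0.12 in C against B (adjusted p = 1.17e-07) by its brightest probe set, 1435368_a_at. Other Parp1 probe sets were called the opposite way, 1422502_at at -0.40 in B against CLP and 1443573_at at 0.81 in C against B. Lig3, the ligase of single-strand break repair, was called in no comparison in the fit of all arrays.

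In the fit of all arrays the 2 steps around fraction A held the most calls. In fits of the compared populations alone the order was reversed, with 11 genes in A against CLP, 6 in B against A, 18 in D against C and 23 in E against D; of all genes tested those fits called 11.2% in B against A and 43.7% in D against C. In A against CLP, 24 genes were lower (63.2%) and 1 was higher (2.63%), against 25.5% and 11.5% of all genes tested, and the median was -0.84 against -0.22. In B against A, 18 genes were higher (47.4%) and 0 lower, against 16.8% and 14.5%, and the median was 0.58 against 0.02. The genes with the largest falls from CLP to A were Lig4, Mre11a and Rad50, and those with the largest rises from A to B were Lig4, Exo1 and Xrcc6. Exo1 was 1.56 ± 0.32 in B against A (adjusted p = 1.98e-04), with a signal of 321 ± 192 (SD, n = 7) in fraction A against 956 ± 453 (SD, n = 7) in fraction B. Xrcc6 was 1.38 ± 0.21 (adjusted p = 1.53e-06). The arrays overlapped for most of them: in A against CLP 4 genes had all A arrays below all CLP arrays and 1 above, against 5.41% and 3.98% of all genes tested. With each array centred on its median, 14 genes were lower in A and 1 higher, against 14.9% and 17.3% of all genes tested, and the fit of CLP and A alone called 10 lower and 1 higher, against 12.9% and 7.31%. Natural killer and plasmacytoid dendritic markers, the low level of B lineage genes, the Gapdh ratio and the spread of the arrays all moved with fraction A, as given above, and their part in these differences was not tested.
Comparing B directly with CLP did not use the mean of fraction A, but in the fit of all arrays the A arrays entered the shared spread. In that fit 6 genes were higher in B (15.8%) and 3 lower (7.89%), against 8.77% and 18.9% of all genes tested. Without the fraction A arrays these calls stayed. Fancg, Mre11a, Poll and Rad50 were then also called lower, and Chek1 and Fancl higher. After centring on the median, 11 were higher and 0 lower, against 21.9% and 7.31%, and after quantile normalization 2 were higher and 2 lower, against 6.81% and 11.5%. In the same comparison 7 of 7 myeloid, 3 of 3 T cell, 4 of 5 plasmacytoid dendritic and 4 of 8 natural killer genes were called lower in B, and their part was not tested. In C against B, 1 gene was higher (2.63%) and 5 were lower (13.2%), against 14.2% and 8.80%, with 6 of 7 myeloid, 6 of 8 natural killer and 3 of 5 plasmacytoid dendritic genes called higher in C. In D against C, 2 were higher and 2 lower (5.26% each), against 7.46% and 13.6%, and 7 of 7 myeloid, 7 of 8 natural killer and 3 of 5 plasmacytoid dendritic genes were called lower in D. The part of these markers in the steps to and from C was not tested. In F against E, 0 of the 38 genes passed in limma's fit of all arrays, against 0.469% of all genes tested, and 2 (Lig4 and Atrip) had an unadjusted p under 0.05; in the fit of E and F alone 3 passed, against 4.79%. For B against CLP, leaving out array 2 or array 5 of CLP lowered the count of genes from 9 to 5.

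The mean level of the 8 end-joining genes and that of the 9 genes of homologous recombination are set side by side along the path. On the log2 scale the end-joining level was 8.75 ± 0.056 (SD, n = 7) in CLP, 8.82 ± 0.11 (SD, n = 7) in fraction B, 9.26 ± 0.11 (SD, n = 5) in fraction C and 9.38 ± 0.11 (SD, n = 5) in fraction D. It then stood at 8.86 ± 0.059 (SD, n = 5) in fraction E and 8.65 ± 0.091 (SD, n = 5) in fraction F. The level of homologous recombination was 10.04 ± 0.13 (SD, n = 7) in CLP, 9.16 ± 0.48 (SD, n = 7) in fraction A, 9.98 ± 0.20 (SD, n = 7) in fraction B and 9.94 ± 0.32 (SD, n = 5) in fraction C. It was 9.67 ± 0.17 (SD, n = 5) in fraction D, 8.81 ± 0.15 (SD, n = 5) in fraction E and 8.97 ± 0.14 (SD, n = 5) in fraction F. Probe sets differ in brightness, so only the change of each level is read and not which is higher. End joining was highest in C and D and homologous recombination in CLP, B and C. From CLP to D the rise of end joining came mainly from Polm (mean log2 5.67 to 9.66) and Lig4 (9.75 to 11.87). Xrcc6 rose less (12.18 to 12.93), and Xrcc4 and Nhej1 little. Xrcc5 (8.76 to 7.96), Prkdc (9.70 to 9.03) and Poll (7.54 to 6.72) fell. The size of the Polm rise depends on the added constant, as given above. The end-joining level and its difference from that of homologous recombination therefore depend on it too. The end-joining level minus the other was -1.29 ± 0.13 (SD, n = 7) in CLP, -1.15 ± 0.56 (SD, n = 7) in fraction A and -1.16 ± 0.28 (SD, n = 7) in fraction B. This difference was -0.67 ± 0.39 (SD, n = 5) in C, -0.29 ± 0.19 (SD, n = 5) in D, 0.055 ± 0.18 (SD, n = 5) in E and -0.32 ± 0.11 (SD, n = 5) in F. Its mean was highest in fraction E, and the D and F arrays overlapped. Array 2 of E, at -0.25, lay within the ranges of D and of F, and the other E arrays stood above both. Within end joining the fit of all arrays called Lig4, Polm and Xrcc6 outside the comparisons with fraction A. Other fits added Poll, Prkdc, Xrcc5 and Nhej1 as given above.
The 21 genes of a list for DNA replication were set beside these levels. That list stood at 11.67 ± 0.069 (SD, n = 7) in CLP, 11.90 ± 0.096 (SD, n = 7) in fraction B and 11.48 ± 0.20 (SD, n = 5) in fraction C. It then stood at 11.51 ± 0.19 (SD, n = 5) in fraction D and 10.55 ± 0.21 (SD, n = 5) in fraction E. Its level was 11.15 ± 0.23 (SD, n = 7) in fraction A and 10.63 ± 0.23 (SD, n = 5) in fraction F. From D to E 15 of the 21 were lower, with a median of -1.02, and 14 of 17 genes of a mitosis list, with a median of -1.60. In that step the replication and mitosis genes thus moved with homologous recombination and the other genes that fell. Their part in those falls was not tested. From B to C the lists parted. There 10 of the 21 replication genes were lower and 1 higher, with a median of -0.48, against 8.80% and 14.2% of all genes tested. The 9 genes of homologous recombination had a median of 0.03 from B to C, with 1 called lower. From C to D the medians were 0.09 for replication and -0.18 for homologous recombination.

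**Figure D4:**
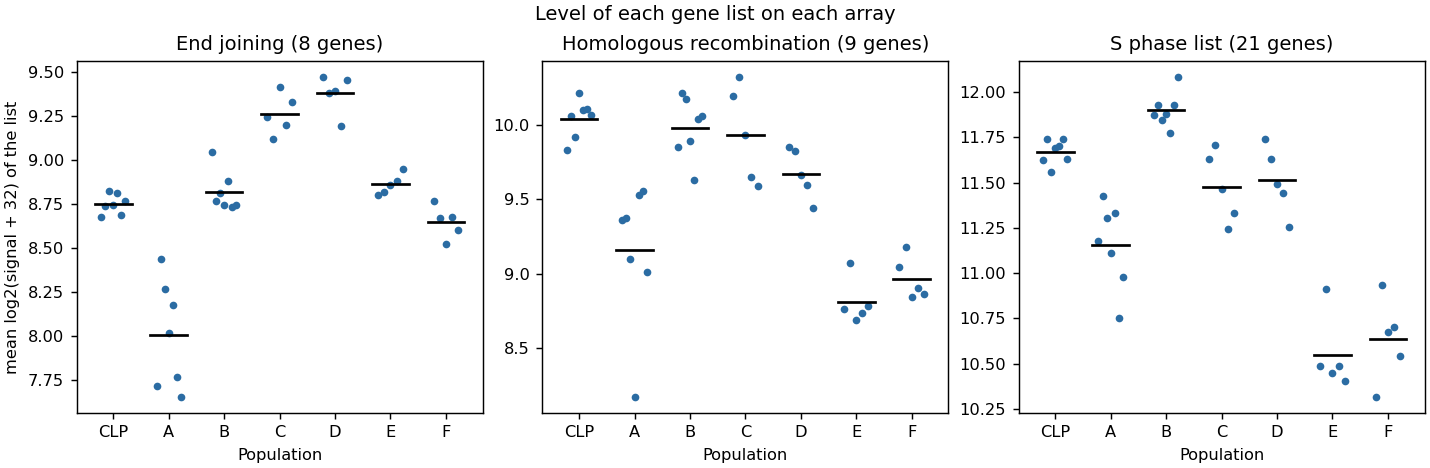
Each panel plots the mean log2(signal + 32) of a list on each array, by population; points are arrays and bars are population means, and each panel has its own vertical range. The end-joining level is highest in fractions C and D, at 9.26 and 9.38, and the levels of homologous recombination and of the replication list are lowest in E and F.

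Other repair genes that are not on the list of 41 were read in the same way, from a list of 53 symbols of which 46 were tested. From D to E 10 of these were lower (21.7%) and 0 higher, against 4.21% and 3.89% of all genes tested. The largest falls were those of Rad54b, a relative of Rad54l, at -1.95 ± 0.50, and Clspn, which links Atr to Chek1, at -1.95 ± 0.29. They were followed by the fork remodeller Fancm (-1.66), the recombinase partner Rad51ap1 (-1.60) and the replicative ligase Lig1 (-1.20). In A against CLP 23 of the 46 were lower (50%) and 3 higher, against 25.5% and 11.5%, and in B against A 18 were higher (39.1%) and 1 lower, against 16.8% and 14.5%. In D against C 4 were higher (8.7%) and 6 lower (13%), near the 7.46% and 13.6% of all genes tested.

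Most of the 38 genes, 22, had more than 1 probe set. Among the other probe sets that passed the filter, 15 belonged to genes called in E against D, and 15 of 15 had the same sign, 4 with a call of their own. In A against CLP 21 of 24 had the same sign, in B against A 13 of 14 and in F against CLP 18 of 22. In B against CLP only 3 of 13 had the same sign and in C against B only 5 of 14, and 0 were called the same way in either, so the calls of Trp53bp1, Parp1, Rad54l, Fanca, Fancd2 and Atm in these comparisons rested on the brightest probe set.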

How the data were processed

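The values are linear MAS5 intensity signals, 1 per probe set and array, as deposited by the authors. MAS5 is named in the submitters' processing notes without a version. The deposited intensity values were already scaled: with 2% trimmed from each end, each array averaged 500. Per the labels' protocols, RNA was extracted with Arcturus PicoPure and then amplified with a NuGEN Ovation Pico kit, which also added the label. No genome build is named in the sources used here.

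Of 45101 probe sets, 64 were controls and 34945 were assigned to a single gene by the platform annotation, which can be old. Tests used log2(value + 32), a scale that compresses the change of dim genes, and no further normalization was applied. limma 3.58.1 in R 4.3.3 (lmFit and contrasts.fit, then eBayes with its trend and robust options; statmod 1.5.0) fitted 7 population means to all 41 arrays for 8 comparisons and an F-test. A gene was called where its p, adjusted by Benjamini-Hochberg over 11947 genes, was under 0.05. A difference is the first population minus the second. The number of arrays limits the precision. The fit was tested on simulated data.

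The genes described, the gene lists and the comparisons were chosen with earlier results of these data known. Values are given for the 3 genes with the largest called rise and fall in each comparison and for every end-joining gene, and more briefly for the others. Replicate numbers in the titles did not pair the samples: arrays with the same number in different populations had a median correlation of 0.0056 in their deviations from the population means over 111 pairs, 9 of them above 0.1, against -0.00080 over 606 other pairs. Alternatives changed the pseudocount, the filter, the scaling, the probe set summary, the model and the arrays used. Those that left out the fraction A arrays, or A arrays 4, 6 and 7, or B arrays 1, 4 and 5, were chosen after seeing the data.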

Additional observations from a re-analysis of the deposited data

Results flagged for a closer look

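In 217 groups (31 genes in 7 populations) the array farthest from the others on the log2(signal + 32) scale was compared with Dixon's critical value for the group size, which chance passes in about 1 of 20 groups. It was passed in 10 groups, of which 6 were in fraction A, 4 of these on array 4.

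On array 4 of fraction A, Bard1 had a signal of 10.9 where the next lowest was 258.4, Chek2 of 27.7 (next 195.2) and Nbn of 90.0 (next 577.7), and Parp1 of 9275 where the next highest was 6294. Poll stood at 7.5 on A array 6 (next 62.8) and Ung at 1561 on A array 7 (next 4212). Brca2 stood at 161.0 on B array 5 (next 684.2); without that array the difference of Brca2 between B and CLP was -0.45 with an adjusted p of 0.165. On E array 2, which also carried the highest myeloid level of its population, Fancd2 stood at 534.5 (next 322.8) and Xrcc3 at 841.4 (next 565.0). Fancg stood at 2878 on D array 3 (next 2420). What set these arrays apart was not tested.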

How the results depend on the processing

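The main counts of genes called out of 38 were 25 (A against CLP), 18 (B against A), 9 (B against CLP), 6 (C against B), 4 (D against C), 10 (E against D), 0 (F against E), 17 (F against CLP) and 31 (F-test). Leaving out each array in turn gave 21 to 25, 15 to 20, 5 to 9, 4 to 7, 3 to 5, 7 to 10, 0 to 0, 15 to 19 and 28 to 31. With the replicate number as a block the counts were 25, 18, 10, 5, 4, 10, 0, 18 and 32; the numbers do not pair the samples, and 9 of 41 arrays correlated best with arrays of their own number. Fits of the compared populations alone gave 11 (A against CLP), 6 (B against A), 18 (D against C), 23 (E against D), 3 (F against E) and 27 (F against CLP) where they moved by over 1.5 times; array weights gave 15 (B against CLP), 15 (C against B), 18 (D against C), 24 (E against D), 2 (F against E) and 27 (F against CLP). Without fraction A, whose arrays then no longer enter the shared spread, the counts were 15 (B against CLP), 13 (C against B), 12 (D against C), 1 (F against E) and 26 (F against CLP), and without A arrays 4, 6 and 7 they were 15, 13, 13, 1 and 26. Median centring gave 15 (A against CLP) and 11 (C against B), quantile normalization gave 4 (B against CLP), and leaving out B arrays 1, 4 and 5 gave 5 (B against CLP). The median of all genes in A against CLP moved from -0.22 to -0.11 with quantile normalization and to 0.0064 with centring; in B against CLP from -0.20 to -0.019 and 0.22, and in C against B from 0.19 to 0.0057 and -0.23.

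Signs turned, almost always with another probe set of the gene. For Trp53bp1 the values were -0.68, -0.83 and -0.29 in A against CLP (and -0.00057 with quantile normalization), -0.60, -0.30 and -0.45 in B against CLP (-0.067 as the mean of probe sets), 0.40, 0.22, 0.25 and 0.15 in C against B, and -0.012 and -0.30 in F against CLP. For Parp1 they were -0.24 in B against A, -0.40, -0.60 and -0.65 in B against CLP (-0.25 as the mean) and 0.13 and 0.81 in C against B. For Rad54l they were -0.0099, -0.51 and -1.0 in B against CLP (-0.22 as the mean) and 0.63 and 0.37 in C against B (0.021 as the mean). For Fancd2 they were 0.29 in C against B, -0.34 and -0.14 in D against C and 0.26 in F against CLP, for Fanca 0.22 in B against CLP and for Chek1 0.028 in F against CLP. Without the arrays named above, Mre11a was -0.051 in B against A and Polm -0.10 in B against CLP. The cause was not tested. Of the other values of single genes, 127 lost and 63 gained a call under another setting, and 116 and 11 on leaving out an array; 46 lost and 2 gained a call with another probe set.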
